A study of Mus musculus with 12 samples.

Results

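The acute response to streptozotocin (STZ) of islets labelled as Bmal1 knockout was read from 4 of the 12 libraries of the study. They are 2 libraries from knockout mice 24 h after STZ and 2 from knockout mice given citrate buffer, the vehicle of STZ, and they were chosen by genotype, treatment and time in the labels, not by a measured value. Knockout mice (Bmal1fl/flRIPCreERT/+) carry floxed alleles of Bmal1, listed in the annotation as Arntl, and a Cre recombinase joined to an oestrogen receptor domain. The rat insulin promoter drives this Cre, so deletion is directed to insulin-producing cells and the other cells of the islet keep the gene. Control mice (Bmal1fl/fl) carry the same floxed alleles without Cre, so the transgene itself goes with the genotype. Their 4 libraries at the same treatments and time were used to ask where the knockout response differs and as a reference for some single values. They also entered the model of all 12 libraries behind the main p-values. The sources used here describe the STZ dose as submaximal and give no age, sex or strain. Each group has libraries A and B, which are not stated to come from separate mice, so the p-values below measure only how far such libraries scatter, which may be technical scatter. Total counts of the 4 libraries ran from 101772241 to 120227469. All values are given in the order A, B.

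STZ is a glucose analogue that carries a DNA-alkylating nitrosourea group and enters beta cells through the glucose transporter GLUT2, the product of Slc2a2. Repair of the alkylated bases by PARP1 consumes NAD, and injured beta cells activate p53, lose insulin and can die, after which macrophages enter the islet. BMAL1 pairs with CLOCK, binds E-box sequences and drives the Per and Cry repressors, the REV-ERB repressors and the output factor DBP. In beta cells this clock is known for sustaining insulin secretion and antioxidant defence.

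Before any gene is read, the make-up of the 4 libraries has to be given, because it moved with the treatment. Islets lie in exocrine tissue, and isolated islets carry some of it. A list of 33 acinar genes, the digestive enzymes and their regulators, took 12.7 and 12.5% of all counts under vehicle and 42.2 and 42.8% after STZ. A list of 26 beta-cell identity genes took 16.5 and 11.5% under vehicle and 2.14 and 2.37% after STZ. The acinar share thus stood higher and the beta-cell share lower after STZ, and on neither list did the vehicle and STZ libraries overlap. The 20 pan-endocrine genes, which all islet hormone cells share, went from 3.02 and 3.11% to 0.546 and 0.555%. Transcripts of organs outside the pancreas also took more of the counts. Hepatocyte genes went from 0.184 and 0.121%, mostly Ttr, which islet cells also make, to 2.63 and 2.58%. Intestinal genes went from 0.0926 and 0.0979% to 0.542 and 0.522%, and genes of T, B and NK cells from 0.000759 and 0.000509% to 0.0440 and 0.0440%. Control libraries shared the hepatocyte rise in part, from 0.106 and 0.0960% to 0.972 and 0.966%, and not the acinar rise: their acinar share was 38.9 and 38.1% under vehicle and 25.5 and 25.9% after STZ. In such bulk libraries, fewer cells of a type and less RNA per cell cannot be told apart. What part the acinar, liver, gut and lymphoid transcripts have in the results below was not tested.

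**Figure D1:**
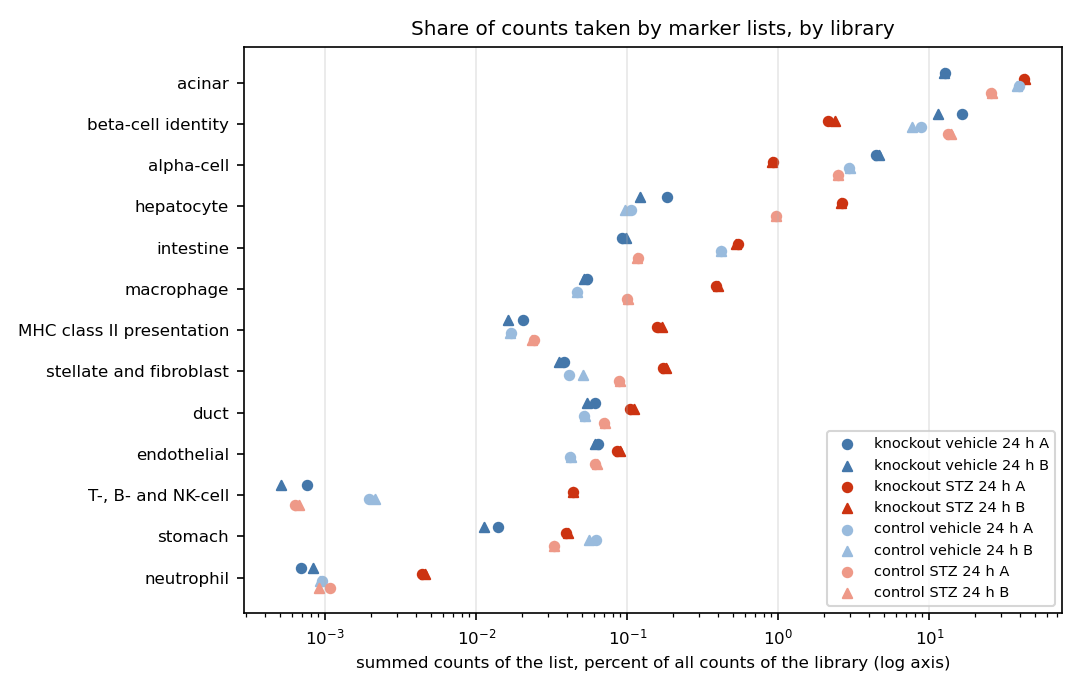
Percent of all counts (logarithmic axis) taken by the genes of 13 lists of cell types or tissues in each library of the 4 groups at 24 h. Each point is 1 library, circles are A and triangles B. In the knockout libraries the acinar share stands at 12.5 to 12.7% under vehicle and 42.2 to 42.8% after STZ, and the beta-cell share at 11.5 to 16.5% and 2.14 to 2.37%.

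Because of this shift, each gene is given on 2 scales. The main scale is CPM, the counts scaled to a common library size, after TMM scaling, which sets the typical gene to no change: the median log2 difference of all tested genes between STZ and vehicle was 0.00. The second scale, called endocrine-scaled, sets the 20 pan-endocrine genes to no change and so asks what a transcript did relative to the endocrine content of the library. On this scale the median gene stood at 2.00, and scaling to total counts put it at -0.47. Of the 20 scaling genes, 19 were themselves lower on the main scale, so the endocrine scale would hide a loss common to all endocrine cells. "Rose" and "fell" below mean that edgeR's quasi-likelihood test passed an adjusted p of 0.05 on the main scale.

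Arntl, the gene targeted for deletion (chr7:113207465-113314126, mm10), is given first. It was at 17.8 and 19.9 CPM under vehicle and 8.88 and 9.43 CPM after STZ, a fall (log2 -1.04, SE 0.11, edgeR adjusted p = 5.5e-05). Both STZ libraries lay below both vehicle libraries, but relative to endocrine content Arntl went the other way (endocrine-scaled 0.96, adjusted p = 3.7e-05). In counts per 100 pan-endocrine counts it stood at 0.0716 and 0.0769 under vehicle and 0.141 and 0.148 after STZ. Its total level did not go with the genotype label at both treatments. Control libraries held 8.58 ± 0.301 CPM under vehicle and 10.98 ± 0.315 CPM after STZ (SD, n = 2 each). The knockout libraries thus held more Arntl than the control libraries under vehicle and less after STZ. The sources used here do not name the floxed exon. Exon depths below are those assigned to the annotated transcript with the most coverage, called the main transcript. Exon 8, a coding exon (113284999 to 113285156), had an unscaled depth per base of 39.4 and 36.4 in the knockout vehicle libraries and 35.4 and 32.2 in the control vehicle libraries, which is not lower in knockout. Relative to the rest of the transcript it was lower: it was covered at 0.627 and 0.671 times the mean depth of the transcript in the knockout vehicle libraries, against 1.75 and 1.99 in the control vehicle libraries. After STZ the knockout values were 1.37 and 0.949 and the control values 1.76 and 1.69. On this relative measure the knockout libraries lay below the control libraries at both treatments. The knockout STZ libraries held relatively more of this exon than the knockout vehicle libraries. Under vehicle exon 2 was also lower in knockout (0.0721 and 0.120 against 0.578 and 0.705). Exon 7 was too (0.839 and 0.734 against 1.37 and 1.77), while exon 11 was higher (1.59 and 1.88 against 1.16 and 1.03). The dip under vehicle was thus not particular to exon 8. Another annotated transcript shares these exons. At exon 2 it was assigned depths of 9.06 and 22.7 in the knockout vehicle libraries, against 4.53 and 6.50 for the main transcript. In the control vehicle libraries these were 5.18 and 2.23 against 11.7 and 11.4. At exon 8 it was assigned 0.767 and 2.74 in knockout vehicle and 0.261 and 5.69 in control vehicle. The part of this assignment in the relative depths was not tested. After STZ neither exon 2 nor exon 7 lay below control in both knockout libraries. The relative depth of exon 8 was lower in knockout at both treatments. Since no source used here singles out this exon, its depth is no test of the deletion. Total Arntl and the unscaled depth of exon 8 were lower in knockout after STZ and not under vehicle. That depth after STZ was 30.1 and 24.0 in knockout and 56.6 and 57.6 in control libraries. The names knockout and control follow the labels alone. The insulin promoter does not direct Cre to acinar, immune or liver cells, whose transcripts rose in the same libraries, and their part in the exon 8 coverage was not tested.

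Of 17411 genes tested, 9814 (56.4%) differed between STZ and vehicle in knockout islets. Of these, 5247 rose (30.1% of the tested genes) and 4567 fell (26.2%). On the endocrine scale 14943 genes passed (85.8%), 14849 of them higher (85.3%) and 94 lower (0.54%). The counts of each list below are read against these shares of all tested genes. Scaling to total counts gave 4085 higher and 7563 lower.

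**Figure D2:**
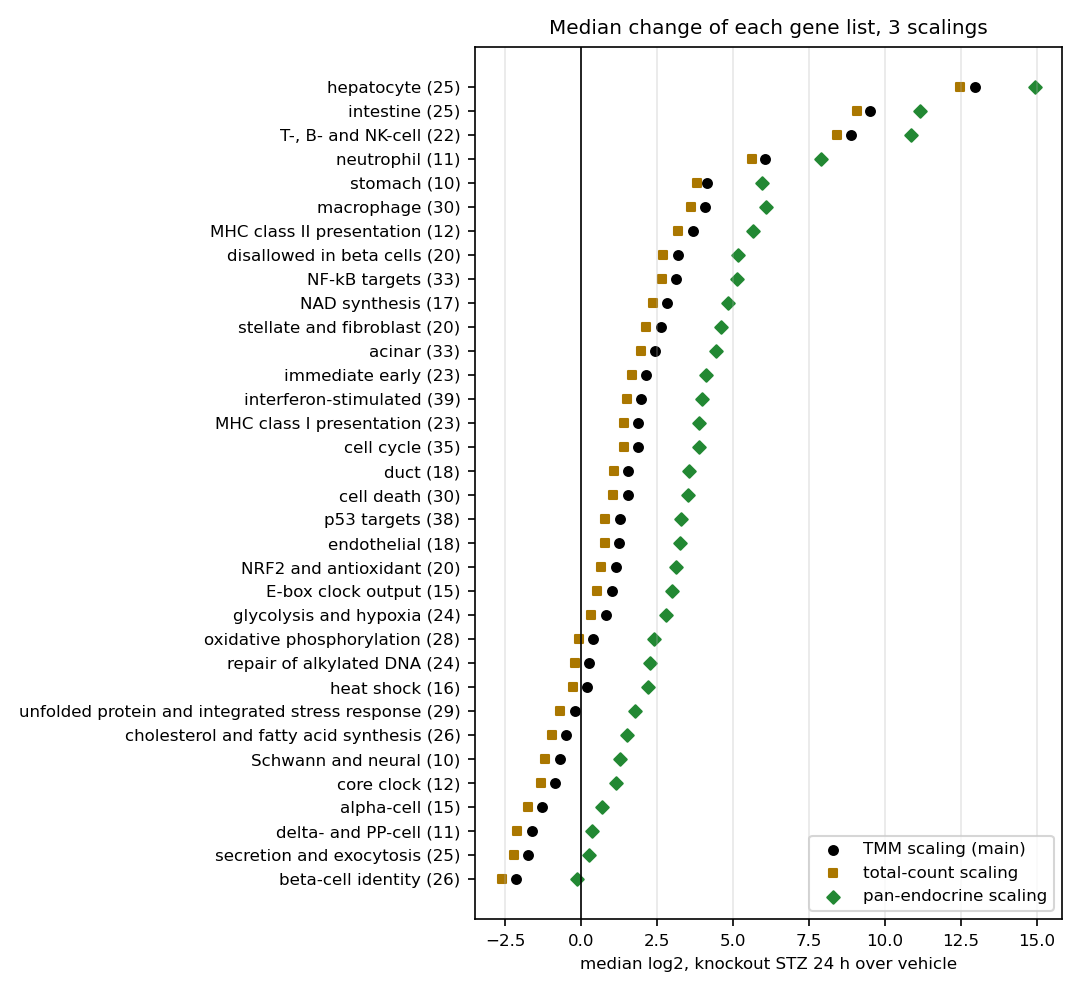
Median log2 difference, STZ 24 h minus vehicle, over the tested members of each of 34 gene lists in knockout islets (x axis, log2 units), with the number of members tested in brackets and 1 symbol for each of the TMM (main), total-count and pan-endocrine scalings. Hepatocyte genes stand highest, with a median of 12.96 on the main scale, and beta-cell identity genes lowest, with -2.15.

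Beta-cell identity genes fell together on the main scale and lay near their vehicle level relative to the endocrine genes. Of 26 tested, 23 fell, 0 rose and the median was -2.15 on the main scale and -0.15 on the endocrine scale, where 6 passed as lower and 2 as higher. Ins2, the main mouse insulin gene, was at 80394 and 46830.0 CPM under vehicle and 13081 and 15342 CPM after STZ (log2 -2.16, SE 0.42, edgeR adjusted p = 0.0022, endocrine-scaled -0.17). Ins1, its retroposed copy, was at 23835 and 15104 CPM under vehicle and 5125 and 5698 CPM after STZ (log2 -1.85, SE 0.33, edgeR adjusted p = 0.0014, endocrine-scaled 0.15). The vehicle libraries differed from each other more than the STZ libraries did for both insulins, and all STZ values were below all vehicle values. The near-identical coding parts of Ins1 and Ins2 make the split of counts between them uncertain. Slc2a2, the route of STZ into the beta cell, was at 585 and 668 CPM under vehicle and 154 and 142 CPM after STZ (log2 -2.08, SE 0.13, edgeR adjusted p = 1.6e-06, endocrine-scaled -0.08). Per 100 pan-endocrine counts it was 2.35 and 2.58 under vehicle and 2.45 and 2.22 after STZ, ranges that overlap. Glp1r, the receptor for the incretin GLP-1, had an endocrine-scaled value of -0.08 and a main-scale value of -2.08. The secretion and exocytosis list, which holds the machinery that moves and fuses hormone granules, showed the same shift between scales. This list shares members with the scaling set, so its endocrine-scaled median is not independent of that scale. Of 25 tested, 22 fell and 0 rose, with a median of -1.74 (endocrine-scaled 0.25, where 8 passed as higher and 2 as lower).

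A few beta-cell genes fell further than the endocrine set. Trpm5, a calcium-activated cation channel that helps depolarise the beta cell, was at 105 and 101 CPM under vehicle and 14.2 and 15 CPM after STZ (log2 -2.82, SE 0.10, edgeR adjusted p = 7.7e-08), and its endocrine-scaled value of -0.82 passed too (adjusted p = 2.7e-05). Per 100 pan-endocrine counts it dropped from 0.423 and 0.392 to 0.225 and 0.236. Slc30a8, the zinc transporter of the insulin granule, was at 828 and 902 CPM under vehicle and 161 and 148 CPM after STZ (log2 -2.49, SE 0.12, edgeR adjusted p = 3.7e-07, endocrine-scaled -0.48, adjusted p = 0.0041). Iapp, the amyloid peptide released with insulin, was at 19046 and 19196 CPM under vehicle and 3652 and 3422 CPM after STZ (log2 -2.43, SE 0.11, edgeR adjusted p = 3.7e-07, endocrine-scaled -0.43, adjusted p = 0.0079). The other 3 list members that were lower on the endocrine scale were G6pc2 (-0.42), a glucose-6-phosphatase that sets the glucose threshold, Ucn3 (-0.45), a peptide of mature beta cells, and Pcsk2 (-0.27), a prohormone convertase. Npy (1.45), a neuropeptide, was higher on it. Mafa, a transcription factor of mature beta cells, was at 4.13 and 1.01 CPM under vehicle and 0.195 and 0.612 CPM after STZ, with a log2 of -2.66 (SE 1.17) that did not pass (edgeR adjusted p = 0.082). Its vehicle libraries were far apart, and both total-count scaling and DESeq2 called it lower (DESeq2 log2 -2.60, adjusted p = 0.022).

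**Figure D3:**
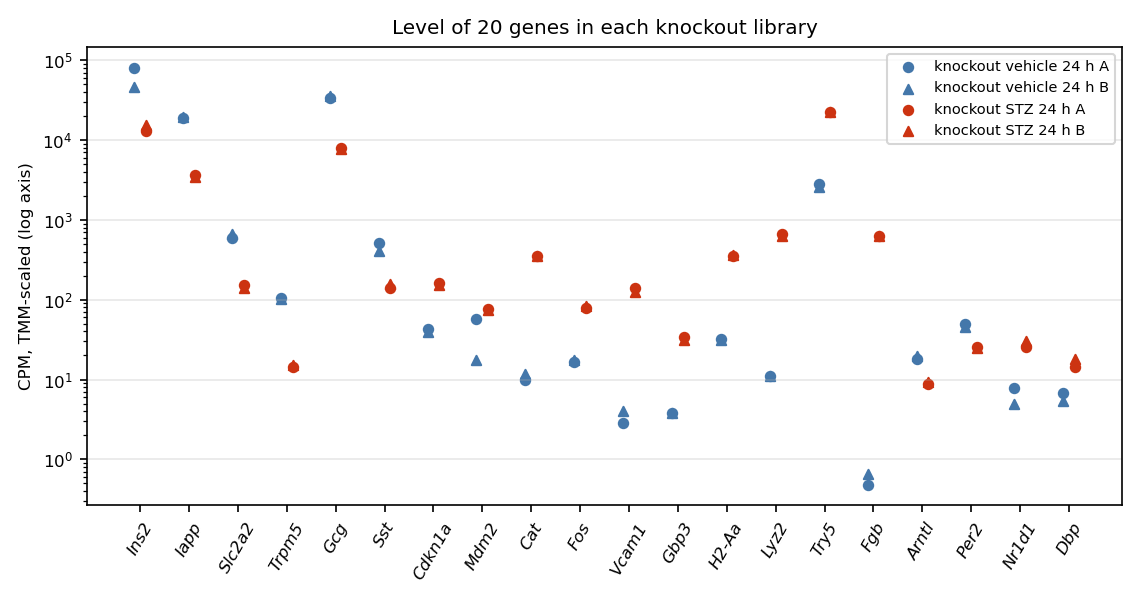
CPM (logarithmic axis) of selected genes in the 2 knockout vehicle and 2 knockout STZ libraries at 24 h, 1 point per library. Insulin, Slc2a2 and Trpm5 lie lower after STZ, while Cdkn1a and Lyz2 lie higher, and for Mdm2 the vehicle libraries are far apart (57.7 and 17.4 CPM).

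Genes of the secretory granule and of exocytosis followed the same course: 22 of 25 fell, 0 rose, and the median was -1.74 on the main scale but 0.25 on the endocrine scale. Cacna1d and Cacna1c, subunits of the voltage-gated calcium channels that trigger insulin release, had main-scale values of -2.03 and -2.08 and endocrine-scaled values of -0.02 and -0.07. Scg5, a chaperone of prohormone convertase, was at 604 and 692 CPM under vehicle and 133 and 126 CPM after STZ (log2 -2.32, SE 0.12, edgeR adjusted p = 6.1e-07, endocrine-scaled -0.32, adjusted p = 0.032). Ptprn2, a granule membrane protein, was at 1162 and 1111 CPM under vehicle and 237 and 246 CPM after STZ (log2 -2.23, SE 0.10, edgeR adjusted p = 3.6e-07, endocrine-scaled -0.23). Scg5 and Ptprn2 belong to the scaling set as well as to this list, so their endocrine-scaled values are not independent of the scale. The list also took nearly the same share of counts as the scaling set in the knockout vehicle libraries (2.905 and 2.99% against 3.02 and 3.11%). Its endocrine-scaled median near 0 is therefore no separate result. Rapgef4, a cAMP sensor of exocytosis, fell less, with a log2 of -0.85 and an endocrine-scaled 1.15.

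Transcripts of the other hormone cells fell with those of the beta cell. Gcg, the glucagon gene of alpha cells, was at 33429 and 35453 CPM under vehicle and 7853 and 7716 CPM after STZ (log2 -2.15, SE 0.09, edgeR adjusted p = 2.5e-07). Per 100 pan-endocrine counts Gcg was 134.3 and 137.0 under vehicle and 124.5 and 121.1 after STZ, and its endocrine-scaled value of -0.14 did not pass (adjusted p = 0.17). Sst, the somatostatin gene of delta cells, was at 516 and 403 CPM under vehicle and 139 and 158 CPM after STZ (log2 -1.63, SE 0.26, edgeR adjusted p = 0.00075, endocrine-scaled 0.37). Alpha-cell, beta-cell and delta-cell hormones thus all stood lower after STZ, and the gap between the hormones was small beside the common drop. Of 15 alpha-cell genes, 7 fell and 2 rose, with a median of -1.29 (endocrine-scaled 0.69). The alpha-cell median was -0.57 without vehicle library A. The 2 that rose were Gc, the vitamin D binding protein that liver makes in large amounts (3.60), and Loxl4, a lysyl oxidase (5.94). Irx2 and Fev, transcription factors, fell by 2.13 and 2.26 (endocrine-scaled -0.13 and -0.26). Of 11 delta- and PP-cell genes, 7 fell and 3 rose, with a median of -1.63 (endocrine-scaled 0.37). The 3 that rose, Lepr (3.72), Rbp4 (2.29) and Hhex (1.3), are also expressed in liver. Casr, the calcium-sensing receptor, fell on the main scale (-1.99) and stood at 0.01 on the endocrine scale.

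**Figure D4:**
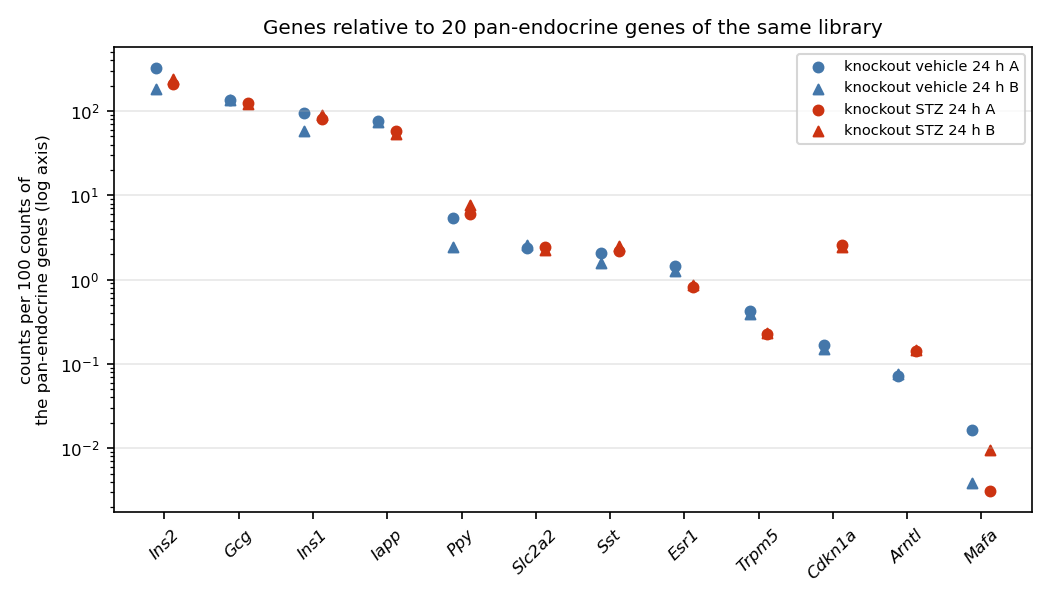
Counts of 12 genes per 100 counts of the 20 pan-endocrine genes (logarithmic axis) in the knockout vehicle and STZ libraries at 24 h, 1 point per library. The Slc2a2 libraries overlap between treatments, Trpm5 and Esr1 lie lower after STZ, and Cdkn1a goes from 0.170 and 0.150 to 2.56 and 2.43.

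The largest losses went beyond the drop of the endocrine set. Among genes of at least 20 CPM on average, Cntnap2, a neurexin-family adhesion protein, fell furthest, being at 35.8 and 40.9 CPM under vehicle and 3.19 and 2.70 CPM after STZ (log2 -3.70, SE 0.13, edgeR adjusted p = 7.3e-08, endocrine-scaled -1.70). Ptprt, a receptor tyrosine phosphatase, was at 116 and 134 CPM under vehicle and 14.2 and 12.6 CPM after STZ (log2 -3.23, SE 0.15, edgeR adjusted p = 4.4e-07, endocrine-scaled -1.22). Spock1, a proteoglycan, was at 74.2 and 82.5 CPM under vehicle and 8.24 and 9.31 CPM after STZ (log2 -3.16, SE 0.11, edgeR adjusted p = 7.9e-08, endocrine-scaled -1.16). In all 3 genes both STZ libraries lay far below both vehicle libraries and close to each other. The other large losses were Nell1 (-3.10), Car10 (-3.09), Negr1 (-2.92), Tcf24 (-2.90), Olfm4 (-2.80) and Mrln (-2.79), with endocrine-scaled values of -1.10, -1.08, -0.92, -0.90, -0.80 and -0.78. Among genes of at least 2 CPM the list also held Adam32 (-3.66), Fam19a1 (-3.48), Csmd2 (-3.26), Cox6a2 (-3.01) and Pcdha12 (-4.52). Pcdha12 shares exons with Pcdhac2, so its counts are uncertain, and it did not pass without STZ library B. Esr1, the oestrogen receptor alpha gene, was at 359 and 323 CPM under vehicle and 51.1 and 54.9 CPM after STZ (log2 -2.69, SE 0.19, edgeR adjusted p = 4.1e-06, endocrine-scaled -0.69). The Cre of the knockout is joined to a domain of an oestrogen receptor, and counts of the transgene and of Esr1 cannot be told apart here. Control libraries held 0.905 ± 0.0892 CPM under vehicle and 1.98 ± 0.434 CPM after STZ (SD, n = 2 each).

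Genes that beta cells normally keep silent, the so-called disallowed genes, rose in the STZ libraries: 18 of 20 passed as higher and 1 as lower, with a median of 3.17 (endocrine-scaled 5.17). Igfbp4, an IGF-binding protein, was at 6.99 and 6.50 CPM under vehicle and 245 and 258 CPM after STZ (log2 5.22, SE 0.16, edgeR adjusted p = 4.5e-08). Cxcl12, a chemokine, was at 8.17 and 6.84 CPM under vehicle and 245 and 244 CPM after STZ (log2 5.03, SE 0.13, edgeR adjusted p = 2.1e-08). Ndrg2 and Oat, the second an ornithine aminotransferase, reached 150.3 and 193 CPM from 8.24 and 16.9 CPM. Ldha, lactate dehydrogenase A, was at 14.2 and 11 CPM under vehicle and 213 and 226 CPM after STZ (log2 4.12, SE 0.20, edgeR adjusted p = 5.2e-07). Most other cells express these genes, and the acinar, hepatocyte, macrophage and stromal lists rose in the same libraries; their part in this result was not tested. Gast, the gastrin gene, fell to a count of 0 in both STZ libraries from 31 counts over the vehicle libraries. Aldh1a3, a marker of dedifferentiated beta cells on this list, rose least (0.38).

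The p53 pathway, which alkylated DNA activates, was higher in part: 23 of 38 targets rose and 2 fell, with a median of 1.27 (endocrine-scaled 3.28). Cdkn1a, the cyclin-dependent kinase inhibitor p21, was at 42.3 and 38.9 CPM under vehicle and 161 and 155 CPM after STZ (log2 1.96, SE 0.10, edgeR adjusted p = 6e-07). Per 100 pan-endocrine counts it went from 0.170 and 0.150 to 2.56 and 2.43. Mdm2, the ubiquitin ligase that restrains p53, was at 57.7 and 17.4 CPM under vehicle and 75.5 and 74.4 CPM after STZ, and its log2 of 1.0 (SE 0.58) did not pass (edgeR adjusted p = 0.17). The wide gap lies between the vehicle libraries: without vehicle library A, Mdm2 passed at 2.11 (adjusted p = 0.017). Ephx1, an epoxide hydrolase that is abundant in liver, was at 14.4 and 14.6 CPM under vehicle and 299.8 and 309 CPM after STZ (log2 4.40, SE 0.15, edgeR adjusted p = 6.3e-08). Other p53 targets that rose were Perp (2.69), an apoptosis effector, Sulf2 (3.39), a sulfatase, Pmaip1 (4.36), the death activator NOXA, Eda2r (2.71), a death receptor, Phlda3 (2.55), an AKT inhibitor, and Fas (2.08). Bbc3 (0.09), which encodes PUMA, Gadd45a (-0.10) and Sesn1 (-0.07) did not pass. Tigar and Rrm2b, a glycolysis regulator and a ribonucleotide reductase subunit, fell by 1.12 and 1.12 on the main scale and were higher on the endocrine scale (0.89 and 0.89).

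Most repair genes for alkylated DNA did not pass. Of 24, 7 rose and 1 fell, with a median of 0.26, which total-count scaling turned to -0.21 and endocrine scaling to 2.26. Mgmt, which removes the methyl group from guanine directly and is low in islets, was at 1.08 and 0.850 CPM under vehicle and 3.50 and 4.31 CPM after STZ (log2 2.01, SE 0.34, edgeR adjusted p = 0.00097). Apex1, the endonuclease of base excision repair, was at 9.64 and 9.33 CPM under vehicle and 18.3 and 17.6 CPM after STZ (log2 0.92, SE 0.12, edgeR adjusted p = 0.00016). Fen1 (1.46), Lig1 (1.08), Pcna (0.71) and Ung (1.07) rose too. Parp1 rose by 0.52, while Mpg (0.30), the glycosylase that starts the excision of alkylated bases, Xrcc1 (-0.07) and Polb (-0.15) did not pass. Aptx, which repairs aborted ligation ends, fell by 0.62 (endocrine-scaled 1.39).

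Genes of NAD synthesis and use rose in 13 of 17 cases and fell in 2, with a median of 2.83 (endocrine-scaled 4.82). The largest rises belonged to enzymes of the tryptophan route, which runs mainly in liver. Tdo2 was at 0.959 and 1.12 CPM under vehicle and 343 and 311 CPM after STZ (log2 8.30, SE 0.29, edgeR adjusted p = 9.5e-08), and Kmo was at 0 and 0.0490 CPM under vehicle and 73.6 and 66.4 CPM after STZ. Haao and Qprt had 0 counts under vehicle and 27.7 and 9.75 CPM on average after STZ. Cd38, an NAD-consuming enzyme, was at 8.48 and 10.1 CPM under vehicle and 81.9 and 71.8 CPM after STZ (log2 3.05, SE 0.17, edgeR adjusted p = 1e-06), and Nnmt, which methylates nicotinamide, was at 0.0577 and 0.180 CPM under vehicle and 21.6 and 21.4 CPM after STZ. Nampt, the salvage enzyme that most cells depend on, had a log2 of 0.22 and did not pass. Nmnat2 and Nmnat3 fell by 0.87 and 0.66 (endocrine-scaled 1.12 and 1.34), and Nmnat2 did not pass without vehicle library A or without STZ library A.

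Antioxidant genes, many of them targets of NRF2, rose in 14 of 20 cases and fell in 0, with a median of 1.13 (endocrine-scaled 3.13). Cat, the catalase gene, which beta cells keep very low and liver keeps high, was at 9.98 and 11.6 CPM under vehicle and 351 and 349 CPM after STZ (log2 5.02, SE 0.12, edgeR adjusted p = 1.2e-08). Gclc, the catalytic subunit for glutathione synthesis, was at 27.2 and 35.9 CPM under vehicle and 115 and 114 CPM after STZ (log2 1.86, SE 0.17, edgeR adjusted p = 2.6e-05). Hmox1, haem oxygenase, was at 4.54 and 3.47 CPM under vehicle and 28.3 and 29.7 CPM after STZ (log2 2.85, SE 0.26, edgeR adjusted p = 2.5e-05). Txn1 (1.51), Gpx1 (3.10), Slc7a11 (2.21) and both metallothioneins, Mt1 (1.54) and Mt2 (1.72), also rose. The classical NRF2 targets Nqo1 (0.38), Gclm (0.01), Txnrd1 (0.19) and Srxn1 (0.12) did not pass.

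The unfolded protein response split. Of 29 genes, 13 fell and 5 rose, with a median of -0.22 (endocrine-scaled 1.77), and 8 rather than 13 fell without vehicle library B or without STZ library B. Hyou1, a chaperone of the endoplasmic reticulum, was at 848 and 711 CPM under vehicle and 334 and 343 CPM after STZ (log2 -1.20, SE 0.16, edgeR adjusted p = 0.00025, endocrine-scaled 0.79). Hspa5, the chaperone BiP, fell by 0.50 and Dnajb9 by 1.56 (endocrine-scaled 1.50 and 0.45). Sel1l and Herpud1, parts of the machinery that disposes of misfolded proteins, rose: Sel1l was at 284 and 336 CPM under vehicle and 603 and 589 CPM after STZ (log2 0.94, SE 0.13, edgeR adjusted p = 0.00024) and Herpud1 was at 167 and 149 CPM under vehicle and 277 and 282 CPM after STZ (log2 0.83, SE 0.12, edgeR adjusted p = 0.00036). Edem1 (0.71) and Dnajb11 (0.34) rose as well, and total-count scaling put Dnajb11 at -0.14. Of the stress-response factors, Atf3 was at 0.793 and 0.613 CPM under vehicle and 8.08 and 8.47 CPM after STZ (log2 3.55, SE 0.25, edgeR adjusted p = 4e-06), while Ddit3, the death-linked factor CHOP, had a log2 of -0.22 and Trib3 one of 0.01, and neither passed. Of 16 heat shock genes, 4 rose and 3 fell, with a median of 0.19 (-0.29 under total-count scaling). Hspb8 (1.88), Cryab (2.58), Hspa1b (1.60) and Bag3 (0.54) rose. Hspa4l, Hspa2 and Hsph1 fell by 1.0, 1.19 and 0.52 (endocrine-scaled 1.0, 0.81 and 1.49).

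Immediate early genes, which cells switch on within minutes of a stimulus or of tissue handling, rose in 21 of 23 cases and fell in 0, with a median of 2.13 (endocrine-scaled 4.12). Fos was at 16.6 and 17.3 CPM under vehicle and 78.2 and 83.4 CPM after STZ (log2 2.25, SE 0.11, edgeR adjusted p = 5.6e-07), and Fosb was at 0.736 and 0.923 CPM under vehicle and 11.9 and 11.2 CPM after STZ (log2 3.80, SE 0.18, edgeR adjusted p = 4.7e-07). Zfp36, which destabilises inflammatory mRNAs, was at 12.3 and 11 CPM under vehicle and 83.9 and 84.2 CPM after STZ (log2 2.85, SE 0.11, edgeR adjusted p = 1e-07). Dusp1 (2.13), Egr1 (1.76), Myc (2.87) and Jun (1.93) rose, and Nr4a1 (0.63) and Nr4a2 (0.03) did not pass. Cell death genes rose in 22 of 30 cases and fell in 0, with a median of 1.53 (endocrine-scaled 3.53). The largest of these rises were in inflammatory death genes: Casp1 was at 0.743 and 0.621 CPM under vehicle and 23.8 and 20.6 CPM after STZ (log2 5.02, SE 0.27, edgeR adjusted p = 9e-07), Casp4 was at 0.440 and 0.474 CPM under vehicle and 12 and 10.5 CPM after STZ (log2 4.62, SE 0.31, edgeR adjusted p = 3.4e-06), and Ripk3 (5.06), Gsdmd (3.30) and Nlrp3 (3.78) rose with them. Tnfrsf1b, a receptor for TNF that immune cells carry, was at 2.40 and 2.76 CPM under vehicle and 44.8 and 49 CPM after STZ (log2 4.18, SE 0.19, edgeR adjusted p = 3.1e-07). Among the mitochondrial death regulators, Bak1 (1.59) and Bid (1.79) rose, and Bcl2l11 (0.01) and Bcl2l1 (0.04) did not pass.

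The inflammatory programmes can be read beside the promoters that carry their binding motifs. In RefSeq promoters (GRCm38.p6, from 250 bases before the start, both strands), the interferon response element, searched as GAAA, any 2 bases and GAAA again, was found for 15 of 30 matched interferon genes. It lies in 40.541% of the 37 promoters of this list and in 2.977% of all 32851 promoters. The NF-kB motif, searched as GGGA, any 2 bases and TTCC, was found for 6 of 22 matched NF-kB genes, in 26.923% of their promoters against 1.208% of all. The interferon element was found for 3 of 18 matched genes of MHC class I presentation, in 15.0% of their promoters. TGATGCAAT, the motif searched for the stress response list, was found for 0 of its 27 matched genes and in 0.167% of all promoters. A match is a description and no proof of binding. The following stretches, read in the direction of the gene with the motif in capitals, show an interferon element in 5 genes described below (Gbp3 chr3:142559969-142560038, Bst2 chr8:71537563-71537632, Cxcl10 chr5:92349063-92349132, B2m chr2:122147518-122147587, Rsad2 chr12:26456533-26456602) and an NF-kB motif in 2 (Nfkbia chr12:55492648-55492706, Cxcl1 chr5:90891144-90891213).
Gbp3: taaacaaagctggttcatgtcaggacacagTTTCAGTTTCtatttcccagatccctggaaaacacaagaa
Bst2: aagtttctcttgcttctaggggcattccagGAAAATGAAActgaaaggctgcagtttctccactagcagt
Cxcl10: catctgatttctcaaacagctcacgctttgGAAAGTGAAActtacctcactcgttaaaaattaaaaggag
B2m: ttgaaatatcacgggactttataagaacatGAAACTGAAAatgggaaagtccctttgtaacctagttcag
Rsad2: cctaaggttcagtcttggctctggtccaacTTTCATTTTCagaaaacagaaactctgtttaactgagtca
Nfkbia: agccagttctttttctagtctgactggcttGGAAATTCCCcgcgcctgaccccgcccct
Cxcl1: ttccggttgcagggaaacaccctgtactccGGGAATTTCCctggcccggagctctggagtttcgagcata
Gbp3, B2m and Cxcl1 lie on the plus strand and Bst2, Cxcl10, Rsad2 and Nfkbia on the minus strand. A capital run that starts with TTTC or GGAA is the element on the opposite strand of the gene.

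Interferon-stimulated genes rose in 36 of 39 cases and fell in 2, with a median of 1.97 (endocrine-scaled 3.97). Gbp3, a guanylate-binding protein of antimicrobial defence, was at 3.85 and 3.83 CPM under vehicle and 33.7 and 30.9 CPM after STZ (log2 3.07, SE 0.15, edgeR adjusted p = 4.7e-07). Bst2, the antiviral tether tetherin, was at 4.0 and 4.18 CPM under vehicle and 47.4 and 46.5 CPM after STZ (log2 3.52, SE 0.17, edgeR adjusted p = 5.1e-07). In both genes the STZ libraries lay above the vehicle libraries and close to each other. Cxcl9, a chemokine for T cells, had 0 counts under vehicle and 23.5 and 22.3 CPM after STZ, at least 1994-fold higher against a floor of 3 counts over the vehicle group. Cxcl10, a related chemokine, was at 0.0433 and 0.131 CPM under vehicle and 10.2 and 10.3 CPM after STZ (log2 6.89, SE 0.97, edgeR adjusted p = 0.00034), on 22 counts under vehicle. Isg20 and Rsad2 fell by 1.76 and 0.66 on the main scale (endocrine-scaled 0.24 and 1.34), although the Rsad2 promoter holds the element shown above. Of the 28 matched genes that rose, 14 have the element.

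NF-kB targets rose in 29 of 33 cases and fell in 0, with a median of 3.13 (endocrine-scaled 5.12). The adhesion molecules that hold leukocytes to vessels rose most among the abundant members: Vcam1 was at 2.87 and 4.02 CPM under vehicle and 140.4 and 124 CPM after STZ (log2 5.26, SE 0.23, edgeR adjusted p = 3e-07) and Icam1 was at 1.15 and 0.858 CPM under vehicle and 35.6 and 39.7 CPM after STZ (log2 5.22, SE 0.28, edgeR adjusted p = 9.2e-07). Nfkbie and Nfkbia, inhibitors that NF-kB itself induces, had log2 values of 3.16 and 1.18. Cxcl16, a chemokine and scavenger receptor, was at 3.97 and 4.37 CPM under vehicle and 26.4 and 29 CPM after STZ (log2 2.73, SE 0.17, edgeR adjusted p = 2.1e-06). The neutrophil chemokine Cxcl1 went from 0.0683 to 5.75 CPM on average (log2 6.37), and Il1b (2.51) and Tnf (4.57) rose at low levels. Nfkb1 (0.29), Nfkbiz (-0.21), Sod2 (0.01) and Il6 (3.11) did not pass.

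Antigen presentation rose on both arms. Of 23 class I genes, 17 rose and 0 fell, with a median of 1.88 (endocrine-scaled 3.88). B2m, the invariant chain of class I molecules, was at 73.4 and 91.1 CPM under vehicle and 965 and 923 CPM after STZ (log2 3.52, SE 0.16, edgeR adjusted p = 3.3e-07). Nlrc5, the class I transactivator, was at 0.671 and 0.793 CPM under vehicle and 29.997 and 30.6 CPM after STZ (log2 5.37, SE 0.40, edgeR adjusted p = 5.9e-06), and Psme1, a proteasome activator, was at 22.4 and 22.8 CPM under vehicle and 59.1 and 55.5 CPM after STZ (log2 1.34, SE 0.11, edgeR adjusted p = 7.8e-06). H2-Q10, a class I molecule secreted by liver, was at 0.0649 and 0 CPM under vehicle and 87 and 90.4 CPM after STZ. Reads of class I genes can be split among near-identical copies, so single H2 genes are uncertain. All 12 class II genes rose, with a median of 3.68 (endocrine-scaled 5.67). H2-Aa was at 32.4 and 31.1 CPM under vehicle and 352 and 361 CPM after STZ (log2 3.49, SE 0.13, edgeR adjusted p = 9e-08). H2-Ob, which is made mainly by B cells, was at 0.317 and 0.270 CPM under vehicle and 74.1 and 67.5 CPM after STZ (log2 7.91, SE 0.26, edgeR adjusted p = 7.3e-08). Ctss and Lgmn, proteases that cut antigens in lysosomes, rose by 3.49 and 3.04.

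Immune cell markers rose together. All 30 macrophage genes rose, with a median of 4.09 (endocrine-scaled 6.09), and their share of counts went from 0.0542 and 0.0514% to 0.386 and 0.398%. Lyz2, lysozyme of macrophages and neutrophils, was at 11 and 11.1 CPM under vehicle and 669.7 and 637 CPM after STZ (log2 5.88, SE 0.13, edgeR adjusted p = 1e-08). Lgals3 was at 1.07 and 1.32 CPM under vehicle and 57.9 and 57.9 CPM after STZ (log2 5.60, SE 0.19, edgeR adjusted p = 7.5e-08), and Aif1 was at 1.25 and 1.14 CPM under vehicle and 25.8 and 24.7 CPM after STZ (log2 4.40, SE 0.20, edgeR adjusted p = 3.5e-07). Adgre1, the F4/80 antigen, rose by 4.07, Csf1r by 4.93 and Cd163, a scavenger receptor of tissue macrophages, by 8.46. Ctss belongs to the class II list as well, and Spp1 to the duct list. Of 11 neutrophil genes 9 rose and 1 fell, with a median of 6.07, or 5.77 with genes at 0 under vehicle set to their lower bound. S100a9 was at 0.101 and 0.0735 CPM under vehicle and 5.87 and 4.64 CPM after STZ on 23 counts under vehicle (log2 5.89, SE 0.47, edgeR adjusted p = 9.8e-06), and Lcn2 was at 0.368 and 0.278 CPM under vehicle and 16.5 and 19 CPM after STZ (log2 5.77, SE 0.31, edgeR adjusted p = 9.9e-07). Il1r2, the decoy receptor for interleukin-1, fell by 1.08 (endocrine-scaled 0.92). All 22 genes of T, B and NK cells rose, with a median of 8.88, or 8.27 with the 8 genes at 0 under vehicle set to their bound. Cd22, Cd79b and Ms4a1, all of B cells, reached 78.8, 61.5 and 87.5 CPM, while Cd3e, of T cells, reached 3.85 CPM. Counts of cells cannot be had from these values, and liver and lymphoid tissue carry macrophages and lymphocytes of their own.

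Markers of the exocrine pancreas and of neighbouring organs rose in the same libraries. All 33 acinar genes rose, with a median of 2.44 (endocrine-scaled 4.44). Try5, a trypsinogen, was at 2777 and 2576 CPM under vehicle and 22237 and 22434 CPM after STZ (log2 3.06, SE 0.11, edgeR adjusted p = 9.2e-08), and Dmbt1, a mucosal defence protein, was at 1476 and 1591 CPM under vehicle and 12754 and 12791 CPM after STZ (log2 3.06, SE 0.10, edgeR adjusted p = 5e-08). Rnase1, the pancreatic ribonuclease, rose by 2.33. Of 18 duct genes, 11 rose and 3 fell, with a median of 1.54 (endocrine-scaled 3.55). Krt19, a duct keratin, was at 1.07 and 0.703 CPM under vehicle and 32.6 and 39 CPM after STZ (log2 5.33, SE 0.42, edgeR adjusted p = 9.3e-06), and Muc1, Spp1 and Sox9 rose by 2.70, 2.23 and 2.41. Krt7 and Epcam fell by 1.24 and 0.37 (endocrine-scaled 0.75 and 1.64). Only 1 of the 3 that fell passed without vehicle library A, STZ library A or STZ library B.

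Vessel and stromal genes rose too. Of 18 endothelial genes, 16 rose and 2 fell, with a median of 1.25 (endocrine-scaled 3.24), and 8 rather than 16 rose without vehicle library B and 10 without STZ library B. Pecam1, a junction protein of all endothelium, was at 56.8 and 55.9 CPM under vehicle and 169 and 171 CPM after STZ (log2 1.59, SE 0.10, edgeR adjusted p = 1.5e-06). Lyve1, of lymphatic vessels and liver sinusoids, was at 7.87 and 9.32 CPM under vehicle and 167 and 166 CPM after STZ (log2 4.28, SE 0.14, edgeR adjusted p = 4.8e-08). Cdh5, the endothelial cadherin, rose by 1.92, and Cldn5 went from 0.101 and 0.0490 CPM, on 20 counts, to 13 and 13.9 CPM. Flt1, a VEGF receptor, and Emcn, a capillary sialomucin, fell by 0.76 and 0.91 (endocrine-scaled 1.24 and 1.09). Vegfa, the growth factor with which beta cells maintain these capillaries, was at 218 and 226 CPM under vehicle and 85.9 and 55.9 CPM after STZ (log2 -1.64, SE 0.34, edgeR adjusted p = 0.0033, endocrine-scaled 0.36). Of 20 stellate and fibroblast genes, 19 rose and 0 fell, with a median of 2.62 (endocrine-scaled 4.62). Fn1, fibronectin, which liver secretes into plasma, was at 3.09 and 1.97 CPM under vehicle and 327 and 349 CPM after STZ (log2 7.06, SE 0.27, edgeR adjusted p = 1.5e-07). Dcn (4.10), Pdgfra (4.11) and Bgn (2.62) rose, and the pericyte gene Rgs5 (-0.19) did not pass. Of 10 Schwann and neural genes, 5 fell and 3 rose, with a median of -0.72 (endocrine-scaled 1.28). Mbp fell by 1.03 (endocrine-scaled 0.97), while Erbb3 (2.26), Ngfr (1.85) and Cryab (2.58) rose, and 3 rather than 5 fell without vehicle library A or without STZ library B.

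Hepatocyte genes had the largest median of the 34 lists: 24 of 25 rose and 0 fell, with a median of 12.96 (endocrine-scaled 14.96). Serpina3k, a plasma protease inhibitor, was at 0.0649 and 0.106 CPM under vehicle and 2152 and 2039.9 CPM after STZ (log2 14.58, SE 0.25, edgeR adjusted p = 4.1e-09). Serpina1a, alpha-1-antitrypsin, was at 0.505 and 0.531 CPM under vehicle and 647 and 659.9 CPM after STZ (log2 10.30, SE 0.13, edgeR adjusted p = 1e-09). Fgb and Apoa2, a fibrinogen chain and an apolipoprotein, rose by 10.12 and 7.97. The 1 member that did not rise was Ttr (-0.68), the transthyretin of islet and liver. Of 25 intestinal genes, 21 rose and 1 fell, with a median of 9.53, or 9.13 with the 8 genes at 0 under vehicle set to their bound. Fabp2 was at 0.173 and 0.114 CPM under vehicle and 121 and 102 CPM after STZ (log2 9.57, SE 0.41, edgeR adjusted p = 2.8e-07), Slc5a1, the glucose cotransporter, was at 1.59 and 1.75 CPM under vehicle and 52.9 and 49.5 CPM after STZ (log2 4.94, SE 0.14, edgeR adjusted p = 2.6e-08), and Reg3g, a lectin that injured acinar cells also make, was at 39.6 and 42.9 CPM under vehicle and 453 and 423 CPM after STZ (log2 3.41, SE 0.14, edgeR adjusted p = 1.9e-07). Dpp4, the protease that inactivates incretins, fell by 0.53 (endocrine-scaled 1.47) and did not pass without vehicle library B, STZ library A or STZ library B. Of 10 stomach genes, 5 rose and 2 fell, and Muc5ac and Muc6 had 0 counts in all 4 libraries. The median was 4.15, or 2.95 with the 7 genes at 0 under vehicle set to their bound, and 5.96 on the endocrine scale. Tff1, a gastric trefoil peptide, was at 0 and 0 CPM under vehicle and 12.1 and 11.5 CPM after STZ, at least 1026-fold higher, and Tff2 was at 109 and 88 CPM under vehicle and 441 and 453 CPM after STZ (log2 2.18, SE 0.16, edgeR adjusted p = 6.1e-06). Gkn3, another gastric peptide, reached 0.279 CPM from 0 counts. Atp4a, a subunit of the gastric proton pump, fell by 1.72 (endocrine-scaled 0.28), and Gif went from 17 counts under vehicle to 0.

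The 10 largest gains of all genes of at least 20 CPM each started from 0 counts in both vehicle libraries. Mug1, a plasma protease inhibitor of liver, reached 663 and 602 CPM, at least 55012-fold higher against the floor of 3 counts over the vehicle group. Marco, a scavenger receptor of macrophages, reached 324 and 348 CPM, at least 29251-fold higher. Clca1, a protein of intestinal goblet cells, reached 295 and 289 CPM, at least 25399-fold higher. The other 7 were Ces1c, Apoh, Bhmt, Akp3, Orm1, Hrg and Ces3a, at 201 to 338 CPM on average, of which all but the intestinal phosphatase Akp3 are made in liver. In all, 957 tested genes had 0 counts in both knockout vehicle libraries, 748 of them rose, and 113 reached 20 CPM or more. Genes chosen for 0 counts under vehicle could not fall, so the number that rose is no test of direction. Of the 957 genes, 477 also had 0 counts in both control vehicle libraries.

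All 6 core clock genes that passed were lower, while of the E-box outputs that passed 10 were higher and 3 lower. This contrast depends on how the lists were split, since the repressors Per2 and Cry2, which fell, are counted among the outputs. The core clock list, which holds activators, the repressors Cry1, Per1 and Per3 and regulators of both, had 6 of 12 members lower and 0 higher, with a median of -0.87 (endocrine-scaled 1.13). Cry1, a repressor, was at 46.9 and 52.9 CPM under vehicle and 19.4 and 21.4 CPM after STZ (log2 -1.29, SE 0.14, edgeR adjusted p = 6.6e-05, endocrine-scaled 0.71). Nfil3, which opposes DBP, was at 41.9 and 40.043 CPM under vehicle and 15.4 and 16.5 CPM after STZ (log2 -1.36, SE 0.14, edgeR adjusted p = 4.3e-05, endocrine-scaled 0.64). Both stood lower in both STZ libraries, and Npas2 (-1.78, endocrine-scaled 0.23) and Rora (-0.70, endocrine-scaled 1.31) fell with Arntl. Of 15 clock outputs driven through E-boxes, 10 rose and 3 fell, with a median of 1.0 (endocrine-scaled 3.0). Nr1d1, the repressor REV-ERB alpha, was at 7.74 and 4.98 CPM under vehicle and 25.2 and 30.3 CPM after STZ (log2 2.13, SE 0.40, edgeR adjusted p = 0.0018), and Dbp was at 6.79 and 5.34 CPM under vehicle and 14.4 and 18.3 CPM after STZ (log2 1.43, SE 0.26, edgeR adjusted p = 0.0016). Bhlhe40 (1.91), a repressor of CLOCK targets, Tspan4 (4.31), Avpr1a (2.97), Ciart (1.50) and Nr1d2 (1.0) rose too. Per2 was at 50.2 and 45.6 CPM under vehicle and 25.2 and 24.9 CPM after STZ (log2 -0.94, SE 0.12, edgeR adjusted p = 0.00019, endocrine-scaled 1.06), and Cry2 and Bhlhe41 fell by 0.93 and 1.56 (endocrine-scaled 1.07 and 0.44). Cells that lack the Cre keep their clock, the lists of such cells rose in the same libraries, and their part in these values was not tested. The sample labels give no hour of day for collection, and its part in the values of the clock genes was not tested.

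The perfect E-box CACGTG, searched on both strands of the same promoter windows, was found for 4 of 12 matched output genes and for 2 of 9 matched core clock genes. It lies in 35.714% of output promoters, 12.5% of core clock promoters and 6.021% of all promoters. It is shown for a gene that rose, Ciart (chr3:95882309-95882374), and for one that fell, Cry1 (chr10:85185079-85185144).
Ciart: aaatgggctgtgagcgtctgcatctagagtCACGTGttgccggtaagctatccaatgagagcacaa
Cry1: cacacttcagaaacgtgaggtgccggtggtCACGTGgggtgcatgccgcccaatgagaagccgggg
Both have the motif within 250 bases of the start and moved in opposite directions on the main scale.

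Proliferation genes rose: of 35 cell cycle genes, 25 were higher and 4 lower, with a median of 1.87 (endocrine-scaled 3.88). Top2a, a topoisomerase of dividing cells, was at 3.86 and 4.13 CPM under vehicle and 36.6 and 34.2 CPM after STZ (log2 3.15, SE 0.23, edgeR adjusted p = 5.2e-06), and Mcm3, a replication helicase subunit, was at 3.05 and 2.78 CPM under vehicle and 20.7 and 22.6 CPM after STZ (log2 2.89, SE 0.15, edgeR adjusted p = 6e-07). Cenpe (3.15), Mki67 (3.18) and Aurkb (3.99) rose as well. Ccnd2, the cyclin on which beta-cell growth depends, was at 991 and 1084 CPM under vehicle and 279 and 273 CPM after STZ (log2 -1.91, SE 0.11, edgeR adjusted p = 1.4e-06, endocrine-scaled 0.09). Ccnd1, Cdkn1b and Cdkn2b fell by 0.54, 0.87 and 0.72 (endocrine-scaled 1.47, 1.14 and 1.29). Without vehicle library B or STZ library B, 2 rather than 4 were lower.

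Lipid and energy metabolism moved in separate ways. Of 26 genes of cholesterol and fatty acid synthesis, 14 fell and 3 rose, with a median of -0.50 (endocrine-scaled 1.50). Sqle, a rate-setting enzyme of cholesterol synthesis, was lower: it was at 134 and 149 CPM under vehicle and 48.2 and 46.2 CPM after STZ (log2 -1.58, SE 0.10, edgeR adjusted p = 2.6e-06, endocrine-scaled 0.42). Acly, which makes cytosolic acetyl-CoA, was at 1188 and 998 CPM under vehicle and 374 and 399 CPM after STZ (log2 -1.50, SE 0.16, edgeR adjusted p = 6.7e-05, endocrine-scaled 0.50). Scd1, a desaturase abundant in liver, was at 19.7 and 24 CPM under vehicle and 336 and 311 CPM after STZ (log2 3.89, SE 0.16, edgeR adjusted p = 2e-07), and Sc5d (0.87) rose. Of 24 genes of glycolysis and hypoxia, 11 rose and 4 fell, with a median of 0.80 (endocrine-scaled 2.80). Hk2, a hexokinase that beta cells keep low, was at 0.981 and 1.02 CPM under vehicle and 9.06 and 9.26 CPM after STZ (log2 3.19, SE 0.20, edgeR adjusted p = 2.2e-06), Egln3 rose by 3.35, and Car9 by 5.71 on 37 counts under vehicle. Eno2, Ankrd37 and Bnip3 fell by 1.43, 0.86 and 0.64 (endocrine-scaled 0.57, 1.14 and 1.36). Of 28 oxidative phosphorylation genes, 14 rose and 1 fell, with a median of 0.40 that total-count scaling turned to -0.08. Atp5o (1.12), Atp5b (0.55), Ndufa4 (0.59) and Ndufa9 (0.43) were among the higher ones, with Ndufa9 at -0.04 under total-count scaling. The 14 higher genes were 9 without vehicle library B, without STZ library A or without STZ library B.

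The last comparison asks where the response of knockout islets differed from that of control islets at the same time. In control islets 1317 genes passed (7.56%), 942 higher (5.41%) and 375 lower (2.15%), against 9814 in knockout. The difference between the responses, tested as an interaction of STZ and genotype, passed for 6558 genes (37.7%), 3676 with a more positive value in knockout (21.1%) and 2882 with a more negative one (16.6%). Beta-cell identity genes had 0 positive and 22 negative interactions, and their control median was 0.23. In control islets Ins2 was 46638 ± 7224 CPM under vehicle and 68361 ± 4118 CPM after STZ (SD, n = 2 each), and its STZ effect in knockout minus that in control was -2.71 (SE 0.58, edgeR adjusted p = 0.0058). Slc2a2 differed by -2.42 (SE 0.17, edgeR adjusted p = 1.2e-05). On the endocrine scale the interactions of Ins1, Ins2 and Slc2a2 did not pass. Those of Gcg (0.61, adjusted p = 0.0021) and Per2 (1.06, adjusted p = 0.00039) turned positive from -1.51 and -1.07, and that of Sst went from -1.65 to 0.48 and did not pass (adjusted p = 0.25). 

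Inflammatory and exocrine genes had mostly positive interactions. Macrophage genes had 28 positive and 0 negative interactions of 30 and rose in 12 cases in control islets, with a median of 0.91, and Lyz2 differed by 4.36 (SE 0.16, edgeR adjusted p = 3.9e-07). Interferon genes had 31 positive and 3 negative interactions of 39, with a control median of 0.28. Acinar genes had 33 positive and 0 negative interactions of 33, and their median in control islets was -0.88. Cdkn1a fell in control islets (-0.90, edgeR adjusted p = 0.0004) and rose in knockout islets (difference 2.86, SE 0.14, edgeR adjusted p = 1.7e-06). Of 25 hepatocyte genes, 24 rose in control islets too, with a median of 5.17, and 24 had a positive interaction. Cxcl10 had an interaction of 5.90 (edgeR adjusted p = 0.0075), which was -1.12 (adjusted p = 0.705) without control vehicle library A. The largest negative interactions among genes of at least 20 CPM were Esr1 (-3.81), Cntnap2 (-3.76), Tcf24 (-3.71), Car10 (-3.54) and Stxbp5l (-3.36), a regulator of vesicle fusion. The Esr1 value sets knockout libraries with the transgene against control libraries without it. The largest positive interactions among genes of at least 20 CPM were Gkn2 (23.31), Gkn1 (23.28), Marco (18.75), Clca1 (17.84) and Lypd8 (16.24). Gkn1 and Gkn2 are gastric peptides that were low in knockout islets, with 0 counts under vehicle and 0.165 and 0.134 CPM (Gkn1) and 0.185 and 0.0287 CPM (Gkn2) after STZ, and whose high level lay in the control vehicle libraries, at means of 80.3 and 116 CPM.

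**Figure D5:**
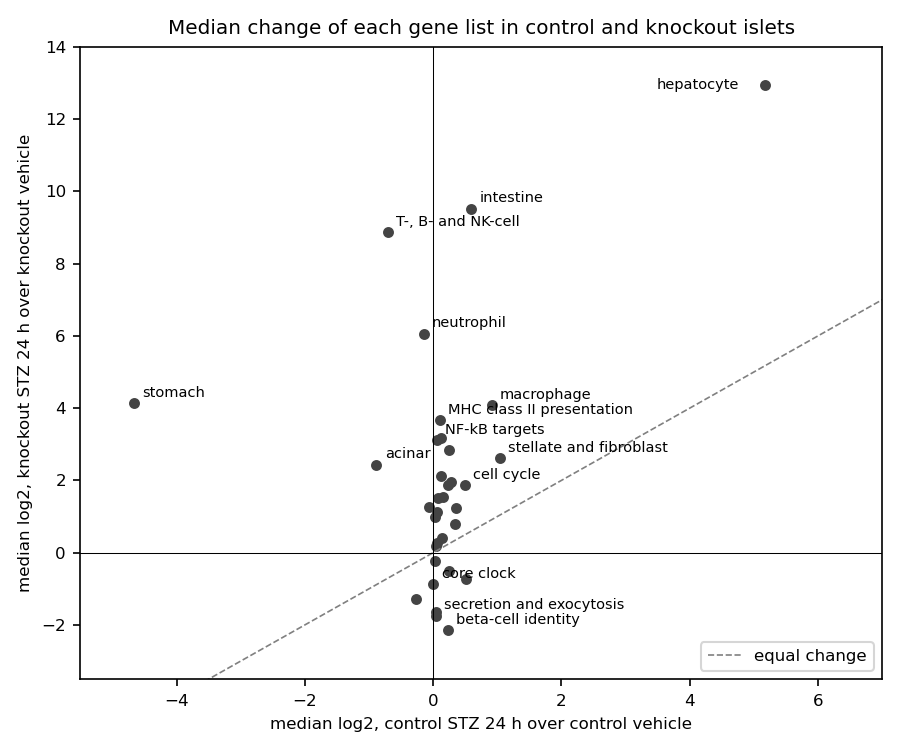
Median log2 difference, STZ 24 h minus vehicle, of each of 34 gene lists in control islets (x axis) and knockout islets (y axis) on the main scale, 1 point per list, with selected lists named. Beta-cell identity genes lie at 0.23 in control and -2.15 in knockout, macrophage genes at 0.91 and 4.09, hepatocyte genes at 5.17 and 12.96, and the dashed line marks equal values.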

How the data were processed

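Islet RNA of 4 knockout libraries, 2 per treatment, was compared, and 4 control libraries at 24 h served the interaction; the 4 libraries taken at 4 wk entered the fit only. Libraries were stranded, per the labels' protocols. The authors deposited estimated counts (expected counts) of each gene, unscaled and made with StringTie 1.3.6 on a fixed RefSeq annotation with the strand option, per the file headers. The build is mm10, per the submitters' processing notes, and the sources used here name no aligner. Every deposited transcript count equalled coverage times length over 75, rounded up (35119 of 35119 transcripts in each library), so counts are proportional to coverage and exceed independent fragments; intervals and floors cover counting error only. The deposited transcript files also gave the coverage of the exons of Arntl, in mean depth per base, as assigned to each annotated transcript.

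Total counts were 114294922 and 101772241 under vehicle and 112280281 and 120227469 after STZ in knockout islets. A and B differed in every group (chi-square over degrees of freedom 246.9 in the vehicle group and 37.3 in the STZ group of the knockout), so none was counted as an identical copy. The chi-square takes counts as independent reads, which they exceed, so it cannot tell repeat libraries from separate mice. The test was that of edgeR 4.0.16 in R 4.3.3: whole-number counts, TMM scaling (factors 1.213 and 1.202 under vehicle, 0.8658 and 0.8703 after STZ), filterByExpr, which kept 17411 of 24421 genes, and a two-sided robust quasi-likelihood F test. A single model with 6 group means held all 12 libraries (common dispersion 0.04927, 6 residual and median 2.569 prior degrees of freedom), and p-values were adjusted by Benjamini-Hochberg over all tested genes with a threshold of 0.05. For a single value an exact permutation test of 2 against 2 libraries cannot go below p = 0.333 and was not used. CPM and log2 values were computed here from the deposited counts, with SE as the log2 difference over the root of F. Alternatives were DESeq2 1.42.0 (size factors and Wald test), total-count and pan-endocrine scaling, no filter, a replicate block, only the compared libraries, and each library left out. The scripts were tested on simulated data. There, a true log2 of 1 was recovered in 20.6% of changed genes for STZ in knockout and in 5.05% for the interaction. A true log2 of 2 was recovered in 94% and 76.8%. Every simulated gene had the common dispersion of 0.04927, whereas the spread of the real genes differs from gene to gene. These shares therefore do not give the power for a single real gene, and genes of small SE passed at log2 values under 1. A gene that did not pass may still differ by 1 log2 unit.

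The genes named are Arntl, the 10 genes with the largest gain or loss at an adjusted p under 0.05, at means of 2 and of 20 CPM over the 4 libraries (gene models left out), 4 members of each list with the smallest adjusted p and members that passed against the list, the 5 largest interactions in each direction, and 14 fixed genes; other members of a list are named to show its range. Some genes that this rule names are not reported here. Members and lists were chosen with earlier results of these data known. Promoter sequences are those of RefSeq for GRCm38.p6, the same assembly as mm10. The list symbols Gm129, Trac, Mct1, Ly6g, Tp53inp1 and Dglucy had no row under that name.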

Additional observations from a re-analysis of the deposited data

Results flagged for a closer look

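For each result here the STZ effect differed between knockout and control islets in edgeR's interaction test; groups of 2 libraries are too small to look for single outlying samples. The test passed for 6558 genes in all. The effect in knockout minus that in control was negative on the log2 scale for these endocrine genes and for the clock gene Per2: -2.35 for Ins1, -2.71 for Ins2, -2.42 for Slc2a2, -1.51 for Gcg, -1.65 for Sst and -1.07 for Per2. It was -3.81 for Esr1, whose counts in knockout can include the transgene, -3.76 for Cntnap2, -3.71 for Tcf24, -3.54 for Car10 and -3.36 for Stxbp5l. It was positive for the clock gene Nr1d1 (2.02) and for Cdkn1a (2.86), Lyz2 (4.36) and Cxcl10 (5.90). The largest positive values belonged to genes at 0 counts in the knockout vehicle libraries, namely Lypd8 (16.24), Clca1 (17.84), Marco (18.75), Gkn1 (23.28) and Gkn2 (23.31), for which a fitted value is no bound. Acinar, liver, gut, stomach and lymphoid shares of the counts differed among the same groups, and their part in these differences was not tested.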

How the results depend on the processing

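Scaling reversed more results than any other setting: pan-endocrine scaling reversed 41 of the gene values and interactions and 7 of the list results. Of the other gene values and interactions, it left 163 the same, made 12 weaker, which lost their call, and made 3 stronger. With pan-endocrine scaling 14943 genes passed, 14849 higher and 94 lower, and 13628 interactions passed. With total-count scaling 7563 genes were lower and 10144 interactions passed. Pan-endocrine scaling turned these log2 values from negative to positive, of which those of Casr, Ins1, Ccnd2, Vegfa, Isg20, Atp4a and Sst did not pass on that scale: Arntl 0.96, Ins1 0.15, Sst 0.37, Casr 0.011, Tigar 0.89, Rrm2b 0.89, Aptx 1.39, Nmnat3 1.34, Nmnat2 1.12, Hyou1 0.79, Hspa4l 1.0, Hspa2 0.81, Hsph1 1.49, Isg20 0.24, Rsad2 1.34, Il1r2 0.92, Epcam 1.64, Krt7 0.75, Flt1 1.24, Emcn 1.09, Dpp4 1.47, Atp4a 0.28, Mbp 0.97, Nfil3 0.64, Cry1 0.71, Bhlhe41 0.44, Per2 1.06, Cry2 1.07, Ccnd2 0.093, Ccnd1 1.47, Cdkn1b 1.14, Cdkn2b 1.29, Sqle 0.42, Acly 0.50, Eno2 0.57, Vegfa 0.36, Ankrd37 1.14 and Bnip3 1.36. It also reversed the interactions of Gcg (0.61), Sst (0.48, not passed) and Per2 (1.06), and the list medians of secretion (0.25), alpha-cell (0.69), delta- and PP-cell (0.37), unfolded protein response (1.77), Schwann (1.28), core clock (1.13) and cholesterol genes (1.50). Total-count scaling reversed Dnajb11 (-0.14) and Ndufa9 (-0.044), neither passed, and the medians of DNA repair (-0.21), heat shock (-0.29) and oxidative phosphorylation genes (-0.082). Both changes follow from the scale, since the median gene moved by 2.00 and -0.47.

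Other settings moved the total counts of genes called by less than 1.5 times, while counts of list members moved by more, or list medians by over the spread between libraries, in 12 cases with the DESeq2 Wald test, 6 with its size factors, 10 with only the compared libraries and 10 to 20 with 1 knockout library left out. The genes called numbered 9604 with DESeq2 size factors, 10216 with the DESeq2 Wald test, 9625 with no filter, 9504 with only the compared libraries, and 7615 to 9098 with 1 library left out (4392 to 4777 higher, 3223 to 4321 lower). Interactions ranged from 5111 to 6024 with 1 library left out. The interaction of Cxcl10 ran from -1.12 to 6.87, the lowest without control vehicle library A. Calls were lost without each knockout library: without vehicle B those of Hsph1, Dpp4, Gif, Cdkn1b, Cdkn2b, Bnip3, Gkn2 and the Nr1d1 interaction; without STZ B the same ones except Gkn2, and those of Pcdha12, Dnajb11 and Epcam. Without STZ A they were Nmnat2, Dnajb11, Krt7, Dpp4, Gif and Bnip3, and without vehicle A Nmnat2, Dnajb11, Krt7, Gif and Gkn2. The Nr1d1 interaction was also lost without control STZ A and without control vehicle A; the cause was not tested.

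The letters A and B do not pair the libraries by anything the labels say: the gaps between A and B under vehicle and after STZ had a correlation of -0.363 across genes in knockout and -0.0123 in control. With a replicate block by letter 8557 genes passed (4702 higher, 3855 lower), and with the block 5255 interactions passed. Crossing the letters in the knockout STZ group, an alternative added after seeing the data, gave 8462 genes and 5107 interactions. Genes with few counts under vehicle, such as Kmo, Loxl4, Gast and Gif, have fold changes limited by depth.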
